A study of Mus musculus with 4 samples.

Results

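The genes described here are 9 mouse genes that stood on the array with more than 1 probe and had at least 1 probe changed in fetal brain after maternal food restriction: Zfp672, Usf2, Zbtb40, Hbp1, Nosip, Rnf32, Prss56, Cox16 and Mrrf. They are 9 of the 28146 gene names in the array files. They were chosen from measured food restriction values, so those values are given as a description and not as evidence. All spots that carry the name of a member were used, which gave 19 probes of 60 bases, 2 for each of 8 genes and 3 for Zbtb40, with 1 spot each. Prss56 stands in the files under its older name 1700027L20Rik.

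RNA came from whole fetal brain of C57BL/6J mice and was pooled from 5 fetuses per condition. In the food restriction group (FR) the dams received 50% of the chow that control dams ate, from gestation day 10 to 17, and fetuses were delivered by caesarean section on day 18. In the food deprivation group (FD) the dams had no food overnight at gestation day 17. Control dams ate freely. Each treated pool was hybridised with control RNA on 2 arrays with the dyes exchanged, with the treated pool in Cy5 on array 1 and in Cy3 on array 2. Each condition is thus 1 pool, no difference can be tested, and a diet effect and chance differences among pools cannot be told apart. Whether both comparisons used the same control RNA is not stated in the labels.

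A probe on an expression array reads only the transcripts that hold its bases. A gene with alternative ends, alternative exons or overlapping neighbours can therefore give different readings at different probes, and a probe can also fail to read its target. Among the members, Usf2, Hbp1, Zbtb40 and Zfp672 belong to families of DNA-binding proteins. Nosip and Rnf32 carry domains of ubiquitin ligases, Prss56 is a secreted serine protease, and Cox16 and Mrrf serve mitochondria.

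The probe pairs with the clearest contrast between a changed probe and another that was not called are shown first, since those bases are what was measured. The first 30 bases of each probe are printed 5′ to 3′ as the array files give them, with the place of the whole probe on build mm9. Probes that the files place over a longer stretch of genome than their 60 bases, and thus across an intron, are printed whole.
Zfp672 A_51_P155174, changed, chr11:58133307-58133366, minus strand: atggcagaacaaacacccagagagaagctg
Zfp672 A_52_P338887, not called, chr11:58128845-58128904, minus strand: ggtccataaagcccagtactgtgtgaaaca
Nosip A_51_P479177, changed, chr7:52332687-52332746, plus strand: caccggctttgcgggctccggagtgaagct
Nosip A_52_P61811, not called, chr7:52333238-52333297, plus strand: gtactggcaaatgcacacactaagcaagtg
Usf2 A_52_P647919, changed, chr7:31730561-31730620, minus strand: acagtgatggttggcggggtcggggaatac
Usf2 A_51_P285844, of opposite sign on the 2 arrays, chr7:31731888-31732032, minus strand: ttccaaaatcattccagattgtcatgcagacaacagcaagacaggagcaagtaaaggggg
Hbp1 A_51_P216605, changed, chr12:32614327-32614386, minus strand: agactgctatgtgtctattcctgtggttta
Hbp1 A_52_P39247, not called, with a value on 1 FR array, chr12:32611387-32611446, minus strand: accaagtgagagttttggttagtaatcaca

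The probes of each gene lie on the same strand. For Zfp672 4402 bases of genome separate the 2 probes, for Nosip 491, for Usf2 1267 and for Hbp1 2880. The files list the same RefSeq transcript, NM_025533, for both Nosip probes, and NM_011680 for both Usf2 probes. For Hbp1 they list NM_177993 for the changed probe and NM_153198 for the other. For Zfp672 they list the noncoding transcript NR_028331 for the changed probe, and NM_178761, NR_028332 and NR_028333 for the other. Exons and untranslated regions of mm9 were not assigned here.

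Values are log2 ratios of the treated pool over its control pool, and brightness is the mean log2 intensity of a probe over both channels and all arrays that measured it. A probe was called measured in a comparison when neither channel of either array had a signal flagged as near background and neither spot was left out for outlying pixels, and called changed when both arrays showed a difference of 1.5-fold or more in the same direction (log2 0.585). In FR 17 of the 19 member probes were measured, and 6 of them, of 5 genes, were higher, against 0.623% of all 25988 measured probes. A further 6, of 4 genes, were lower, against 0.423% of all measured probes, and 5 were neither. With median centring in place of loess 1 was higher and 2 were lower, and with the background fit on all spots 2 and 0. The 2-array means of the 12 changed probes lay between 0.82 and 1.40 in size with median centring. With the fit on all spots they lay between 0.41 and 0.92. The shares of changed probes follow from how the genes were chosen and nothing is read from them. The member probe closest inside the threshold was Mrrf A_52_P169295, at -0.76 on the array with the smaller value, and the closest outside was Prss56 A_51_P431543 at -0.31. The technical SD of the mean of a dye swap was 0.127 in FR and 0.123 in FD over all measured probes. Across probes, the 2 arrays of a comparison correlated at r = 0.42 in FR and 0.14 in FD, with the same pools on both.

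**Figure D1:**
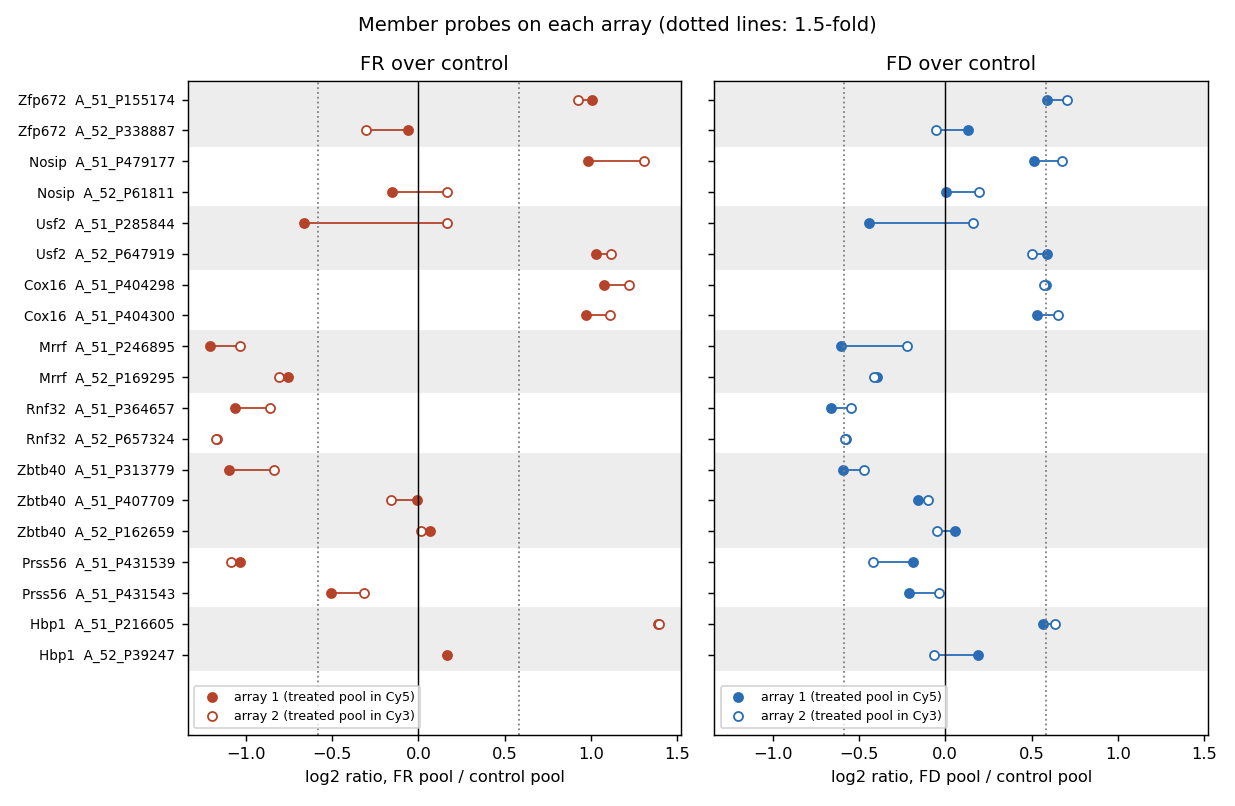
Log2 ratio of the treated over the control pool for the 19 member probes, in FR on the left and FD on the right. Filled and open points are arrays 1 and 2, and dotted lines mark 1.5-fold. The 12 changed probes lie outside the dotted lines in FR and closer to 0 in FD, and Usf2 A_51_P285844 is the probe whose arrays differ most.

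Zfp672, a zinc finger protein of the DNA-binding C2H2 type, was higher in FR at one probe and not at the other. Probe A_51_P155174 read 1.01 and 0.92 on FR arrays 1 and 2, a mean of 0.96 or 1.95-fold higher in FR. It read 0.59 and 0.71 in FD, a mean of 0.65 or 1.57-fold, and was the only member probe called in FD. Probe A_52_P338887 had nearly the same brightness, 9.38 against 9.56. It read -0.06 and -0.31 in FR and 0.13 and -0.05 in FD. The first probe thus had higher ratios than the second on all 4 arrays. In a bulk pool, a change in the number of cells of a type and a change in RNA per cell cannot be told apart.

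Usf2 encodes a basic helix-loop-helix leucine zipper factor that binds E-box sequences. Probe A_52_P647919 read 1.03 and 1.11 in FR, 2.10-fold higher, and 0.59 and 0.50 in FD, 1.46-fold higher. Probe A_51_P285844 read -0.66 on array 1 and 0.17 on array 2 of FR, and -0.44 and 0.16 in FD. Its sign turned with the dye in both comparisons, and the SD of its 2 arrays was 0.586 in FR and 0.426 in FD, against 0.0609 and 0.0624 for the other probe. Its mean of -0.25 in FR and -0.14 in FD therefore has no clear direction, while on each array it lay below the first probe.

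Zbtb40, a member of the BTB-domain zinc finger family, had 3 probes, of which 1 was called in FR. Probe A_51_P313779, the most downstream of the 3, read -1.10 and -0.84 in FR, a mean of -0.97 or 1.95-fold lower, and -0.59 and -0.47 in FD. Probe A_51_P407709, listed for the clone sequence AK036584 and 34441 bases of genome away, read -0.01 and -0.16 in FR and -0.16 and -0.10 in FD. It was dim, with a brightness of 6.47 against 8.45, and its intensity on FR array 1 was 87.6 in the FR channel over a local background of 42, and 60.6 in the control channel over 46.5. The third probe, A_52_P162659, was not well above background in the treated channel of FR array 2 and was not counted as measured. In the scanner software's own ratio these other probes averaged -0.66 and -0.58 in FR, against -0.08 and 0.04 in the main processing.

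Hbp1 is an HMG-box transcription factor known as a repressor of cell cycle genes. Probe A_51_P216605, listed for NM_177993, had the highest ratios among the members, 1.39 on both FR arrays or 2.62-fold higher in FR. In FD it read 0.57 and 0.64, 1.52-fold higher in the mean, and was short of the threshold on array 1. Probe A_52_P39247, listed for NM_153198, was much brighter, 11.4 against 7.84. It read 0.16 on FR array 1, its spot on array 2 was left out for outlying pixels, and in FD it read 0.19 and -0.07. On the 1 FR array that measured both, the probes differed by 1.22. With median centring in place of loess the second probe read 1.02 on that array, and the difference was 0.78.

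Nosip encodes a ubiquitin ligase first described as a partner of nitric oxide synthases. Probe A_51_P479177 read 0.98 and 1.31 in FR, 2.22-fold higher, and 0.52 and 0.68 in FD, 1.51-fold higher. Probe A_52_P61811, 491 bases of genome further downstream, read -0.15 and 0.16 in FR and 0.01 and 0.20 in FD. The first was the brighter, at 11.3 against 8.61.

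Rnf32, a RING finger gene best known from testis, was lower in FR at both of its probes. Probe A_51_P364657 read -1.06 and -0.86 in FR, 1.95-fold lower, and -0.66 and -0.55 in FD. Probe A_52_P657324 read -1.17 on both FR arrays, 2.25-fold lower, and -0.57 and -0.58 in FD. The probes are 18510 bases apart and differed by 0.21 in FR.

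Prss56, a trypsin-like serine protease known for its part in eye growth, read below its control in FR at both probes, with 1 of the 2 past the threshold. Probe A_51_P431539 read -1.04 and -1.09 in FR, 2.09-fold lower, and -0.19 and -0.42 in FD. Probe A_51_P431543 read -0.50 and -0.31 in FR, 1.33-fold lower, and -0.21 and -0.04 in FD. This second probe was dim, with a brightness of 6.82 against 8.59, and on FR array 1 its intensity was 93.9 in the FR channel over a background of 45, and 82.6 in the control channel over 47.5. Its ratio moved most with the processing, to -1.33 in the ratio that the scanner software computed, so the disagreement of the Prss56 probes does not hold there.

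Cox16 is an assembly factor of cytochrome c oxidase in the mitochondrial inner membrane. Its probes overlap by 20 bases, in capitals here, so they share that stretch of sequence.
Cox16 A_51_P404300, bases 31 to 60, chr12:82573133-82573192, minus strand: gtaggaagaaGATTCCAGACCTGTGGAAAC
Cox16 A_51_P404298, bases 1 to 30, chr12:82573093-82573152, minus strand: GATTCCAGACCTGTGGAAACctggatgtga
Probe A_51_P404298 read 1.08 and 1.22 in FR, 2.22-fold higher, and 0.58 and 0.57 in FD. Probe A_51_P404300 read 0.97 and 1.11 in FR, 2.06-fold higher, and 0.53 and 0.65 in FD. The probes differed by 0.11 in FR, and the first was the brighter, at 11.3 against 9.97.

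Mrrf encodes the recycling factor that releases mitochondrial ribosomes after translation ends. Its second probe spans 5947 bases of genome and so reads a spliced transcript; it is printed whole.
Mrrf A_51_P246895, chr2:36045019-36045078, plus strand: tgcccttgtgttaaactcatttggattaat
Mrrf A_52_P169295, chr2:36009219-36015165, plus strand: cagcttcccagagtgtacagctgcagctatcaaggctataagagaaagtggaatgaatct
Probe A_51_P246895 read -1.21 and -1.04 in FR, 2.18-fold lower, and -0.60 and -0.22 in FD. Probe A_52_P169295 read -0.76 and -0.81 in FR, 1.72-fold lower, and -0.40 and -0.41 in FD. Both probes, 29853 bases apart, were lower on all 4 arrays, and their means differed by 0.34 in FR and 0.01 in FD. The second probe minus the first was 0.45 and 0.23 on FR arrays 1 and 2. In FD it was 0.21 and -0.19, so the sign turned between arrays.

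The description of these genes as having disagreeing probes held for some members only. In FR the difference between measured probes of a gene was at least 1.5-fold for 5 of the 8 members that had 2 measured probes, against 4.53% of the 5403 genes with 2 or more. These were Usf2 with 1.32, Zfp672 with 1.15, Nosip with 1.14, Zbtb40 with 0.88 and Prss56 with 0.65. Mrrf, Rnf32 and Cox16 lay below 1.5-fold, and Hbp1 would pass on array 1 alone. The member median was 0.77 in FR, against 0.14 over all such genes, whose 95th percentile was 0.57. By size of the difference, Usf2 came 12th among all these genes, Zfp672 20th, Nosip 21st, Zbtb40 56th and Prss56 170th, while Cox16 came 3252nd. The share, median and ranks of these FR differences follow in part from how the genes were chosen, and nothing is read from them.

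The choice of the members did not use the FD ratios directly. In FD, 2 of the 9 members differed by at least 1.5-fold between probes, against 0.662% of 5588 genes. They were Usf2 with 0.69 and Zfp672 with 0.61. Each passed on 1 array only, Usf2 with 1.03 on array 1 and 0.34 on array 2, and Zfp672 with 0.46 on array 1 and 0.76 on array 2. Hbp1 followed with 0.54, and it too passed on array 2 but not on array 1. Nosip came next with 0.50 and Zbtb40 with 0.40. The member median was 0.40 and that of all such genes 0.11. If the control RNA was the same in both comparisons, the FD and FR differences share it. The members were also chosen with earlier results of these data known, so nothing is read from the FD share and median.

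**Figure D2:**
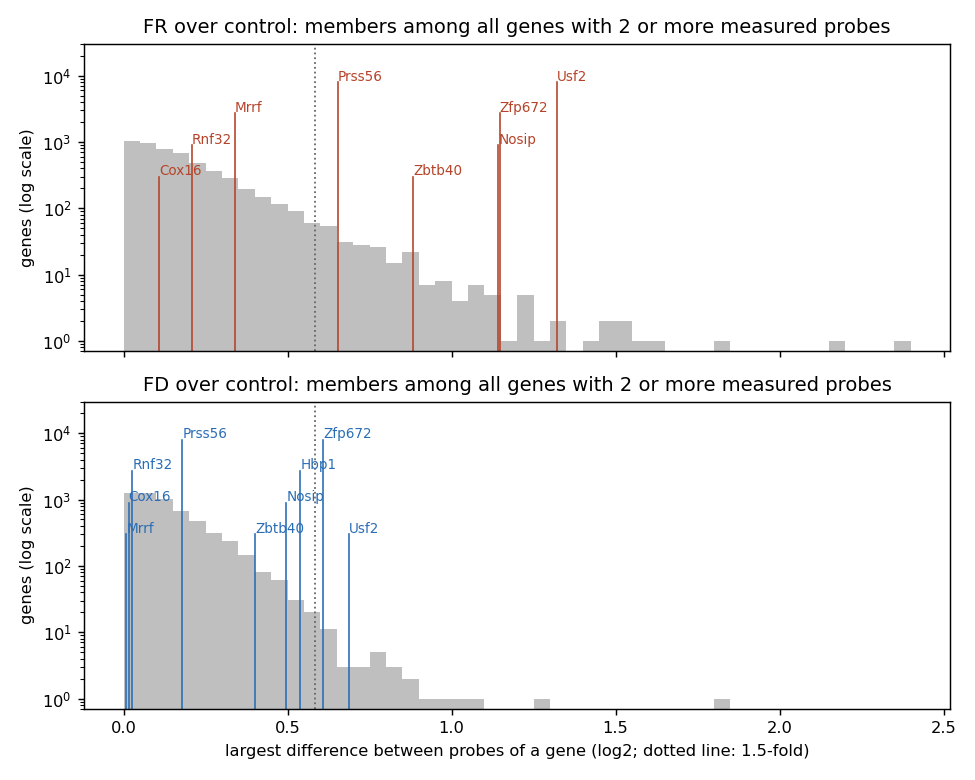
Number of genes, on a log scale, by the largest difference between their measured probes in log2 units, for FR above and FD below, with the members as coloured lines and 1.5-fold as a dotted line. Usf2, Nosip and Zfp672 lie far in the tail in FR, and Cox16, Rnf32 and Mrrf lie in the bulk of genes. Hbp1 is left out for FR because 1 of its probes had no value on array 2.

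The 12 probes changed in FR were all smaller in size in FD on both arrays. Because these probes were picked for passing the threshold in FR, smaller values in FD follow in part from that choice. Nothing is read from the FD minus FR differences for the same reason. The 6 higher probes lay between 0.96 and 1.39 in FR and between 0.55 and 0.65 in FD, and the 6 lower ones between -1.17 and -0.78 in FR and between -0.60 and -0.30 in FD. At 1.5-fold, 1 of 18 measured member probes was called higher in FD, against 0.0892% of all 25779 measured probes, and 0 were called lower, against 0.105%. At 1.3-fold, 6 member probes were higher in FD, against 0.396% of all probes, and 4 were lower, against 0.322%. Because the members were chosen with earlier results of these data known, nothing is read from these FD shares. The FD minus FR difference of the mean log2 ratio lay between -0.79 and -0.32 for the higher probes and between 0.36 and 0.76 for the lower ones.

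The channels allow the pools to be set against each other in the same dye, as differences in log2 signal from the 501 probes nearest in brightness. For the 6 higher probes, FR minus FD lay between 0.05 and 0.72, and the control of FR minus the control of FD between -0.28 and -0.04. For the 6 lower ones, FR minus FD lay between -0.72 and -0.29, and the control difference between -0.01 and 0.13. These values too follow in part from the choice of the probes on FR. Over 23387 probes, 95% lay from -0.35 to 0.39 for FR minus FD and from -0.31 to 0.33 for the controls. Hbp1 A_51_P216605 at 0.72, Prss56 A_51_P431539 at -0.72 and Mrrf A_51_P246895 at -0.63 lay furthest out for FR minus FD. Zfp672 A_51_P155174 differed from these, with 0.05 for FR minus FD and -0.28 for the controls, both inside those 95% ranges. Its FR minus FD was 0.17 on array pair 1 and -0.08 on pair 2. The gap between its FR and FD ratios thus lay mostly in the control channels, but within the spread of all probes. Cox16 lay between, with 0.35 and 0.28 at its probes for FR minus FD and -0.21 and -0.19 for the controls.

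**Figure D3:**
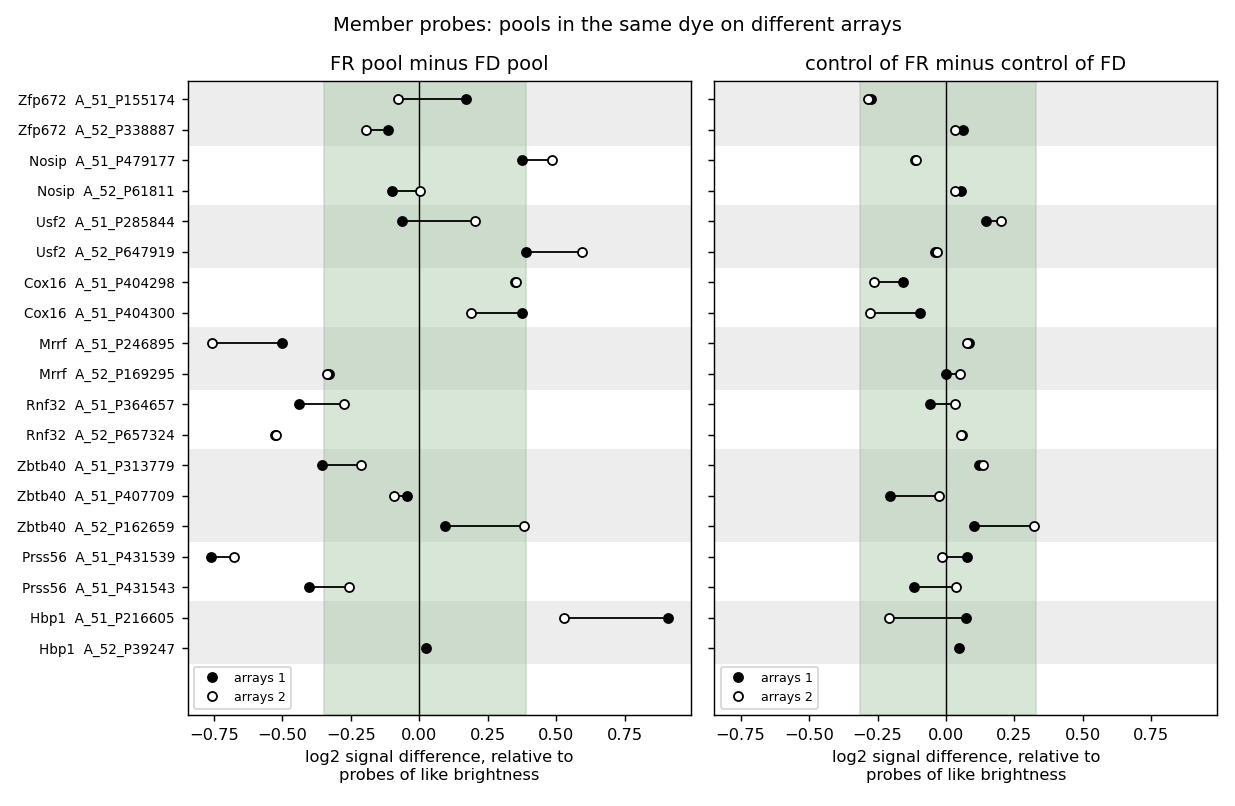
Difference in log2 channel signal between pools in the same dye on different arrays, relative to probes of like brightness, for FR minus FD on the left and the control of FR minus the control of FD on the right. Filled and open points are array pairs 1 and 2, and the green band holds 95% of all probes. Hbp1 A_51_P216605, Prss56 A_51_P431539, Mrrf A_51_P246895 and Rnf32 A_52_P657324 lie outside the band on the left with both points, as does Usf2 A_52_P647919, and on the right all member points lie inside it.

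The disagreement of Usf2, Zfp672 and Nosip passed 1.5-fold under each of the 5 ways of processing the spots, and so did that of Hbp1 on array 1 alone. For Prss56 it did so under 2 of the 5 and for Zbtb40 under 3, and in both genes the probe that was not called was dim. In the scanner software's own ratio the Prss56 probes differed by 0.04 and those of Zbtb40 by 0.56. Cox16, Mrrf and Rnf32 stayed below 1.5-fold under all 5.

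**Figure D4:**
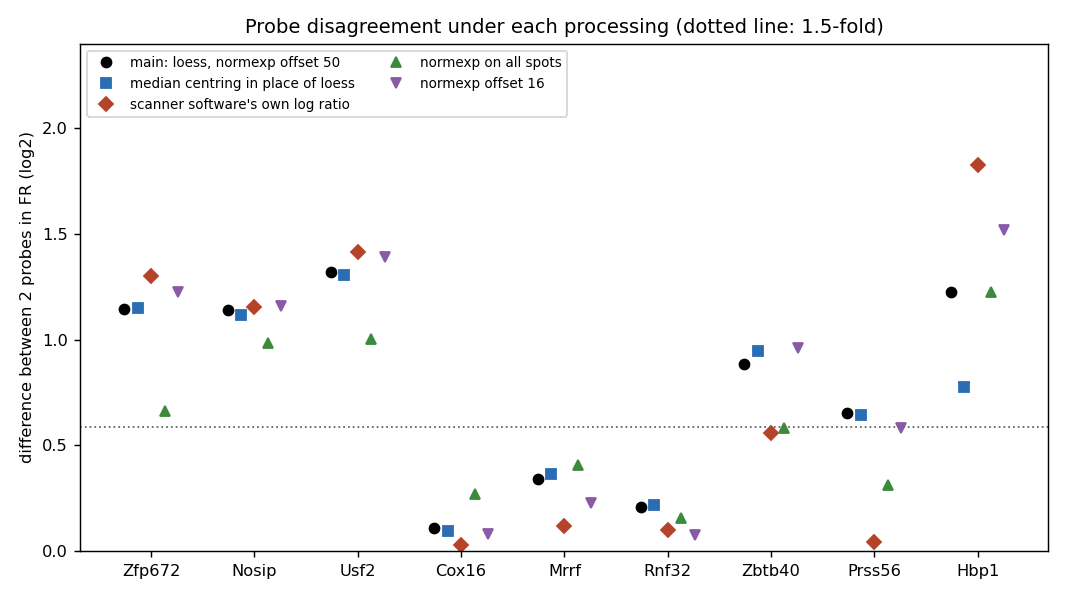
Difference in log2 ratio between 2 probes of each member in FR under 5 ways of processing, with 1.5-fold as a dotted line. Hbp1 is from array 1 alone. Usf2, Nosip, Zfp672 and Hbp1 lie above the line throughout, Prss56 and Zbtb40 lie on both sides of it, and Cox16, Mrrf and Rnf32 lie below it.

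Probes of other genes within 5 kb of a member probe were looked at as well. Of those measured in FR, 1700047K16Rik beside the changed Zfp672 probe averaged 0.23 in FR and 0.07 in FD, and Zfp692-ps beside the other Zfp672 probe -0.27 and -0.07. Both lie on the strand opposite to the Zfp672 probes. Lmbr1 beside Rnf32, also on the opposite strand, averaged -0.02 in FR. The probe of ENSMUST00000110340, whose bases the files place on both sides of the Cox16 probes on the same strand, averaged -0.17 in FR and 0.06 in FD, unlike the Cox16 probes themselves. The other neighbours, Rcn3, Hamp, AK082682 and AK079837, were not measured in FR.

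Other genes on the array had larger differences between probes in FR than any member, over the same 2 arrays. Rprd2 was first, with 2.11 at its highest and -0.28 at its lowest measured probe in FR, a difference of 2.39, and 1.18 and 0.01 in FD. The next were 1500004A13Rik with a difference of 2.19, Arrdc4 with 1.82, the mitochondrial ribosomal protein gene Mrpl15 with 1.63 and Trim27 with 1.56. In each of these 5 genes the higher probe was also the higher one in FD.

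Of the markers of the labelled tissue, 5 of 5 neuronal and 5 of 5 neural progenitor genes found on the array were well above background. In the treated channels 73.5% to 84.2% of spots were well above background, and 71.4% to 85.3% in the control channels. The 5 skeletal muscle markers were between -2.93 and -1.69 in FD and between -0.08 and 0.15 in FR. The 4 pituitary markers lay between -1.52 and -0.02 in FD and between -0.19 and 0.06 in FR, with Prl not well above background. The 3 liver markers lay between 0.53 and 0.87 in FD and between 0.27 and 0.72 in FR. In FR, the 3 astrocyte markers with a value, Aqp4, S100b and Gja1, lay between -0.50 and -0.32, and 4 of the oligodendrocyte lineage between -0.72 and -0.01. The part of these cell types in the values of the members was not tested.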

How the data were processed

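The members and lists were chosen with earlier results of these data known. Per the file headers, the scanner output deposited by the authors gives uncorrected mean spot intensity and median local background in both channels, a log10 ratio made by the scanner software, and flags of other kinds per spot (Agilent Feature Extraction 9.5.3.1). The deposited value table holds log2 values that equal, on spots well above background, the authors' scanner ratio turned to treated over control (column medians -0.03, 0.03, -0.03 and 0.01), so it is no separate measurement; how dim spots were made is unknown. Spots with a background over 2 times the array median were left out, a step added after earlier values were seen. Intensities were corrected with normexp (offset 50) and each array was normalised by loess, with control spots at weight 0 (limma 3.58.1, R 4.3.3). Spots flagged as outliers were left out and the swapped arrays turned. Channel signals were scaled with Aquantile, which shifted array 2 of FR, so pool differences are relative to probes of like brightness, a choice made after seeing the data. Every listed member probe is named, together with neighbours within 5 kb and the 5 other genes whose probes differed most. With 1 pool per condition no p-value was computed. The script was tested on simulated data. The alternatives tried are median centring, the scanner ratio, normexp on all spots, offset 16, other thresholds and each array alone.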

Additional observations from a re-analysis of the deposited data

How the results depend on the processing

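With 1 pool per condition, 2 arrays per comparison and dim probes near background, only technical error is known. Each of the 12 probes changed in FR kept its sign in both comparisons under all settings tried. Its call did not always hold. Of 6 higher and 6 lower member probes in FR, median centring in place of loess left 1 higher and 2 lower, normexp on all spots 2 and 0, and a 2-fold threshold 3 and 3. The FR means of these 12 probes over both arrays lay between 0.82 and 1.40 in size with median centring. With normexp on all spots they lay between 0.41 and 0.92. In FD, with 1 higher and 0 lower, the scanner software's ratio and the deposited value table each gave 3 and 3, an offset of 16 gave 3 and 2, 1.3-fold gave 6 and 4, and median centring and 2-fold gave 0 higher. Single arrays gave 2 to 4 higher and 0 to 3 lower in FD. The 5 members whose probes differed by at least 1.5-fold in FR became 3 with the scanner ratio, with the deposited table, with normexp on all spots, and among probes of brightness 8 or more. The median difference of 0.77, taken over all 8 members with 2 measured probes, was 0.34 with the scanner ratio and the table, and 0.49 with normexp on all spots. In FD, array 1 alone gave 1 member whose probes differed by at least 1.5-fold, Usf2, and array 2 alone gave 2, Zfp672 and Hbp1. The cause of these moves was not tested. No paired analysis was possible because each comparison holds 1 pair of pools.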
